A study of Mus musculus with 12 samples.

Results

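The insulin-like growth factor (IGF) system was followed in mouse cochlear glial cultures through 8 genes, which are the ligand gene Igf1, the receptor gene Igf1r and the binding protein genes Igfbp2, Igfbp3, Igfbp4, Igfbp5, Igfbp6 and Igfbp7. The genes were chosen by name, with earlier results of these data known, and each had 1 row among the 55487 genes of the expression table. All 8 reached the low-value limit of at least 1 TPM, an abundance that is corrected for transcript length, in at least 3 libraries, as did 16016 genes altogether. RNA-seq libraries came from 4 groups of cells with 3 libraries each, all grown from the spiral ganglion of mice at postnatal day 4. The animals were of both sexes and of mixed C57Bl6 and FVB/N background, and several were pooled for a culture.

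Spheres were suspension cultures harvested after 5 to 7 days in a medium with IGF at 50 ng/ml, EGF at 20 ng/ml, bFGF at 10 ng/ml and heparan sulfate. The other groups were made from such spheres, plated and kept for 14 days in media for which no IGF is listed. SCDM, the control medium, held BDNF and NT3 at 50 ng/ml each. SCDM/FGF was the same medium with bFGF at 100 ng/ml. FIBCL was a Neurobasal medium without BDNF or NT3 that held forskolin at 20 µM, ISX9 at 20 µM, I-BET at 1 µM, Chir99021 at 10 µM and LIF at 1000 U/ml. Its bFGF is listed at both 50 and 100 ng/ml, and the I-BET dose is that of the labels, while the methods give a range that also reaches above it. These compounds raise cAMP, act on neuronal gene activation, block BET bromodomain proteins and inhibit GSK3, in that order, and LIF is a cytokine. B27 and N2 supplements were used in all 4 groups, and B27 and N2 contain insulin. FIBCL therefore differed from SCDM in base medium, neurotrophins, bFGF, 4 compounds and LIF together, and their parts cannot be told apart.

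IGF1 and IGF2 are secreted peptides that act through the IGF1 receptor, a tyrosine kinase that signals through insulin receptor substrate (IRS) adaptors to PI3K, AKT and mTOR. The binding proteins hold IGFs outside the cell, carry them and set how much reaches the receptor, and proteases that cut a binding protein free the ligand. IGFBP7 binds IGFs only weakly, and IGFBP6 prefers IGF2. In the inner ear IGF1 is needed for normal growth and survival of spiral ganglion neurons, the cells that these cultures are meant to yield.

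The genes lie on 6 chromosomes of the mouse genome (GRCm38, GENCODE M21). Igf1 (ENSMUSG00000020053) is at chr10:87858265-87937042 on the plus strand and Igf1r (ENSMUSG00000005533) at chr7:67952827-68233668 on the plus strand. Igfbp2 (ENSMUSG00000039323, chr1:72824503-72852474, plus) and Igfbp5 (ENSMUSG00000026185, chr1:72857932-72874884, minus) are neighbours that end toward each other, with 5457 bases and 0 annotated genes between them. Igfbp3 (ENSMUSG00000020427) is at chr11:7206086-7213923 on the minus strand, 3539 bases from Igfbp1, and Igfbp4 (ENSMUSG00000017493) is at chr11:99041244-99054392 on the plus strand. Igfbp6 (ENSMUSG00000023046) is at chr15:102144362-102149511 on the plus strand and Igfbp7 (ENSMUSG00000036256) at chr5:77349240-77408041 on the minus strand. Igfbp7 shares 85 bases at one end with Polr2b on the opposite strand, listed at 29.57 to 40.0 TPM, and the antisense gene Igf1os overlaps Igf1 and was listed at up to 1.01 TPM. The methods name an orientation mode for the alignment, but whether the counting of genes used strand is not given in the sources used here.

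The promoters of 4 binding protein genes are shown because Igfbp4 and Igfbp5 had the highest mean levels in spheres, SCDM and SCDM/FGF and, with Igf1, the lowest log2 fold changes of the 8 genes between FIBCL and SCDM, while Igfbp3 and Igfbp2 moved in opposite directions with bFGF. Each is the 250 bases before the RefSeq start (GRCm38.p6), 5′ to 3′ on the gene's strand. Capitals mark matches, on either strand, to the TATA box (TATAAA), the E-box (CANNTG) or the GC box (GGGCGG).
Igfbp4, chr11:99040994-99041243, plus strand: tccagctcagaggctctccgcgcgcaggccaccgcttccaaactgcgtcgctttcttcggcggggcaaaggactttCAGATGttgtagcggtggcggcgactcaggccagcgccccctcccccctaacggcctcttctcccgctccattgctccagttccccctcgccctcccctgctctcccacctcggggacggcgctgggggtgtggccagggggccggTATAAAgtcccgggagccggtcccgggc
Igfbp5, chr1:72874866-72875115, minus strand: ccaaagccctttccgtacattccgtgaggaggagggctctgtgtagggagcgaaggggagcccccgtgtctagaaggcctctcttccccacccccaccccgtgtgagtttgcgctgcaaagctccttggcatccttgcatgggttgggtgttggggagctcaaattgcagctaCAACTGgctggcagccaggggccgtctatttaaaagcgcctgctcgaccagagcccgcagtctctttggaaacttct
Igfbp3, chr11:7213924-7214173, minus strand: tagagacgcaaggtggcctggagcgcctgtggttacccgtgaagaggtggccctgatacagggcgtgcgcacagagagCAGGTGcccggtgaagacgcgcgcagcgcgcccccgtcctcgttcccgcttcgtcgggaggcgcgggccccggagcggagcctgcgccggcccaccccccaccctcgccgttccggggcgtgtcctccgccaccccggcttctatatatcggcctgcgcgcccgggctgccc
Igfbp2, chr1:72824230-72824479, plus strand: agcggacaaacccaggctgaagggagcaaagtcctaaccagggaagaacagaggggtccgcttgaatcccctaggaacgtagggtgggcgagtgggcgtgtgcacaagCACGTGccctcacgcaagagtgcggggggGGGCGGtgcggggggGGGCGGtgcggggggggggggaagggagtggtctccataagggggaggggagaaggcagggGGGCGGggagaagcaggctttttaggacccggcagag
The last 19 bases of the Igfbp5 stretch lie within the longer GENCODE gene model. Igfbp4 alone of these 4 held TATAAA, which began 28 bases before the start, and Igfbp2 alone held GGGCGG, with 3 matches. Each of the 4 held 1 E-box, which began 174 bases before the start in Igfbp4, 77 in Igfbp5, 172 in Igfbp3 and 142 in Igfbp2. Among 32851 RefSeq promoters searched over the same length, 66.2% held an E-box, 32.7% a GC box and 12.4% the TATA box. RefSeq gave 9 promoters for the 8 genes, and of these 7 held an E-box, 3 a GC box and 2 the TATA box. The core of the cAMP response site, TGACG, was in 0 of the 9 and in 17.8% of all promoters, the TCF/LEF site CTTTGA in 2 and in 13.8%, and the AP-1 site TGANTCA in 2 and in 6.75%. A match is only a match of letters in this window.

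Levels are given as scaled TPM, which is the deposited TPM multiplied by a factor for each library that aligns the bulk of expressed genes. TPM is per transcript length, so levels of different genes can be compared. The factor mattered most for FIBCL, whose values were raised 1.19 to 1.31 times, and between FIBCL and SCDM the median change over all genes, on the log2 scale, was −0.07 after scaling and −0.40 on the deposited values. The listed TPM summed to 899295 to 911076 in the FIBCL libraries and to 982067 to 994845 in the others. On the deposited TPM the share of all passing genes that were higher went from 45.6% to 26.9% between FIBCL and SCDM, from 46.0% to 28.9% between FIBCL and SCDM/FGF and from 46.0% to 21.4% between FIBCL and spheres. It went from 48.7% to 33.0% between SCDM and spheres, from 49.6% to 26.9% between SCDM/FGF and spheres and from 50.5% to 39.1% between SCDM/FGF and SCDM. The shares of all genes printed below are those after scaling. Between 21625 and 22281 genes per library were above 0. Differences are log2 fold changes of scaled TPM + 1 from limma with Benjamini-Hochberg adjustment over the 16016 genes. On this scale the change of a gene near 0 is understated, and ratios are therefore also given as ratios of mean scaled TPM. A gene passed at an adjusted p under 0.05, and its change was called large where the log2 fold change also reached 1.5 in size. The p-values measure only the spread between libraries within groups of 3. For each gene this spread was pooled over the 4 groups and drawn by limma toward a trend over all genes. The 6 comparisons share libraries and are not independent of each other.

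**Figure D1:**
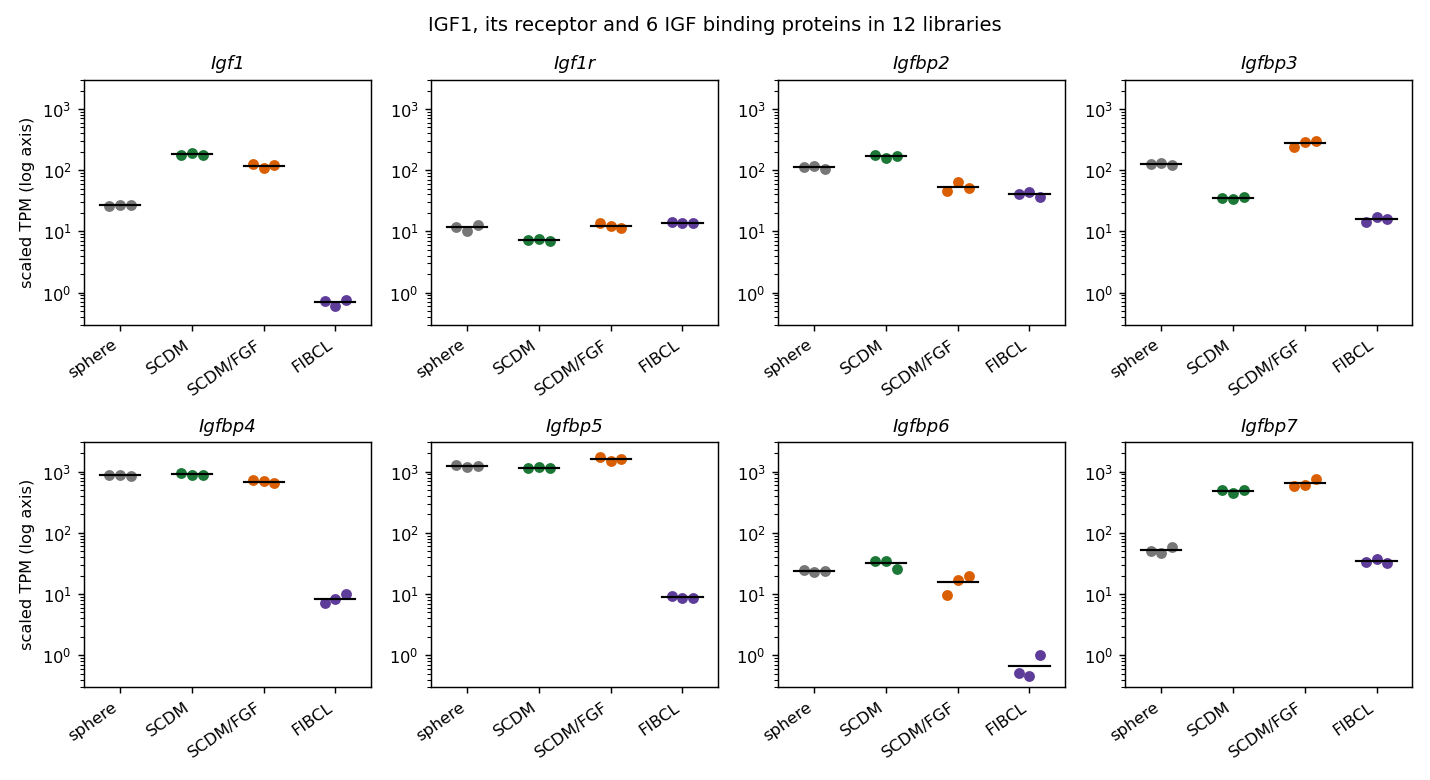
Scaled TPM (log axis) of the 8 genes in each of the 12 libraries, by group, with the group mean as a bar. Igf1 and all the binding protein genes were lowest in the 3 FIBCL libraries. Igf1 and Igfbp7 were higher in SCDM and SCDM/FGF than in spheres, and Igfbp2 and Igfbp3 moved in opposite directions between SCDM and SCDM/FGF.

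In FIBCL the system was lower than in SCDM at nearly every gene but the receptor. Of the 8 genes, 7 were lower and Igf1r was higher, where 39.0% of all genes tested were lower and 32.7% were higher. 6 of the falls were large, against 9.97% of all genes. The median log2 fold change of the 8 genes was −4.04, against −0.07 over all genes. Because the 8 genes were chosen with earlier results of these data known, these shares and medians are descriptions and not a test. For each of the 8 genes every FIBCL library lay on one side of every SCDM library, which held for 74.7% of all genes. Igf1 was under 1 TPM in every FIBCL library, and Igfbp6 was near 1 or under, so both passed the low-value limit through the other groups.

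Igf1, the secreted ligand, measured 178, 192 and 176 scaled TPM in the SCDM libraries and 0.729, 0.603 and 0.748 in FIBCL. In spheres it was 26.0, 27.0 and 26.6, and in SCDM/FGF 125, 108 and 120. The 4 groups did not overlap, in the order SCDM, SCDM/FGF, sphere and FIBCL. The mean was 182 ± 8.72 (SD, n = 3) in SCDM and 0.693 ± 0.0789 (SD, n = 3) in FIBCL, a ratio of 263. The log2 fold change was −6.76 (SE 0.063, adjusted p = 1.86e-14 in limma). Against spheres the FIBCL mean was 38.3 times lower (log2 fold change −4.02, adjusted p = 7.71e-13). In rank, Igf1 lay between 621 and 693 among the genes of a SCDM library and between 14767 and 15143 in FIBCL.

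Igfbp5 and Igfbp4, binding proteins that PAPP-A can cleave, had the highest mean levels of the 8 in spheres, SCDM and SCDM/FGF, although Igfbp4 overlapped with Igfbp7 in SCDM/FGF. Igfbp5 measured 1140, 1200 and 1140 scaled TPM in SCDM and 9.42, 8.63 and 8.53 in FIBCL. It was 1260, 1190 and 1250 in spheres and 1730, 1490 and 1580 in SCDM/FGF. All 3 FIBCL libraries therefore lay far below the other 9. The mean was 131 times lower in FIBCL than in SCDM (log2 fold change −6.88, SE 0.057, adjusted p = 8.78e-15 in limma). Igfbp5 ranked 119 to 130 in the SCDM libraries and 8627 to 8998 in FIBCL. Igfbp4 followed the same pattern, with 966, 896 and 889 in SCDM against 7.11, 8.29 and 9.92 in FIBCL. It was 895, 888 and 848 in spheres and 722, 696 and 649 in SCDM/FGF. Its mean was 109 times lower in FIBCL than in SCDM (log2 fold change −6.61, SE 0.088, adjusted p = 2.29e-13). Counted from the lowest log2 fold change of the 16016 genes in this comparison, Igfbp5 was at place 36, Igf1 at 41 and Igfbp4 at 44.

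Igfbp6, which prefers IGF2, and Igfbp7, which binds IGFs weakly, were also lower in FIBCL. Igfbp6 measured 35.1, 35.2 and 26.0 in SCDM and 0.514, 0.455 and 1.01 in FIBCL, a ratio of means of 48.6 (log2 fold change −4.32, SE 0.22, adjusted p = 9.24e-09). In SCDM/FGF it was at 9.72, 17.2 and 19.7, with library 1 low, and it was 25.0, 22.8 and 23.9 in spheres. Igfbp7 measured 504, 450 and 492 in SCDM and 33.6, 37.1 and 32.7 in FIBCL, a ratio of 14.0 (log2 fold change −3.77, SE 0.10, adjusted p = 4.59e-11). In FIBCL it was closer to spheres, where it was 50.5, 47.4 and 58.5, than to SCDM. The log2 fold change between FIBCL and spheres was −0.58 (adjusted p = 0.000357, and −1.11 on the deposited TPM), with no overlap of libraries.

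Igfbp2 and Igfbp3 fell least. Igfbp2, one of the main IGF carriers of the nervous system, measured 175, 158 and 170 in SCDM and 40.7, 43.1 and 36.4 in FIBCL, 4.19 times lower (log2 fold change −2.04, SE 0.11, adjusted p = 1.1e-08). Igfbp3, the main carrier of IGFs in blood, measured 35.1, 34.0 and 36.7 in SCDM and 14.4, 17.4 and 16.0 in FIBCL, 2.21 times lower (log2 fold change −1.10, SE 0.082, adjusted p = 2.13e-07). The FIBCL libraries were below the SCDM libraries for both genes. The neighbours Igfbp2 and Igfbp5 on chromosome 1 thus differed in the size of the fall, with log2 fold changes of −2.04 and −6.88. The difference between genes was not itself tested.

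Igf1r, the receptor gene, went the other way. It measured 7.27, 7.57 and 6.85 in SCDM and 14.4, 13.7 and 13.6 in FIBCL, 1.93 times higher (log2 fold change 0.86, SE 0.087, adjusted p = 3.24e-06), and was also higher on the deposited TPM (0.49). SCDM was the low group. Spheres were at 11.8, 10.3 and 12.7 and SCDM/FGF at 13.6, 12.3 and 11.4. The difference between FIBCL and SCDM/FGF did not pass (log2 fold change 0.15, 95% interval −0.038 to 0.34, adjusted p = 0.137), and on the deposited TPM its sign turned to −0.14. Against spheres FIBCL was higher by 0.25 (adjusted p = 0.0231), a direction that turned to −0.26 (adjusted p = 0.0427) on the deposited TPM. That call was also lost without sphere library 2 (0.17, adjusted p = 0.0989) or FIBCL library 1 (0.23, adjusted p = 0.0704).

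**Figure D2:**
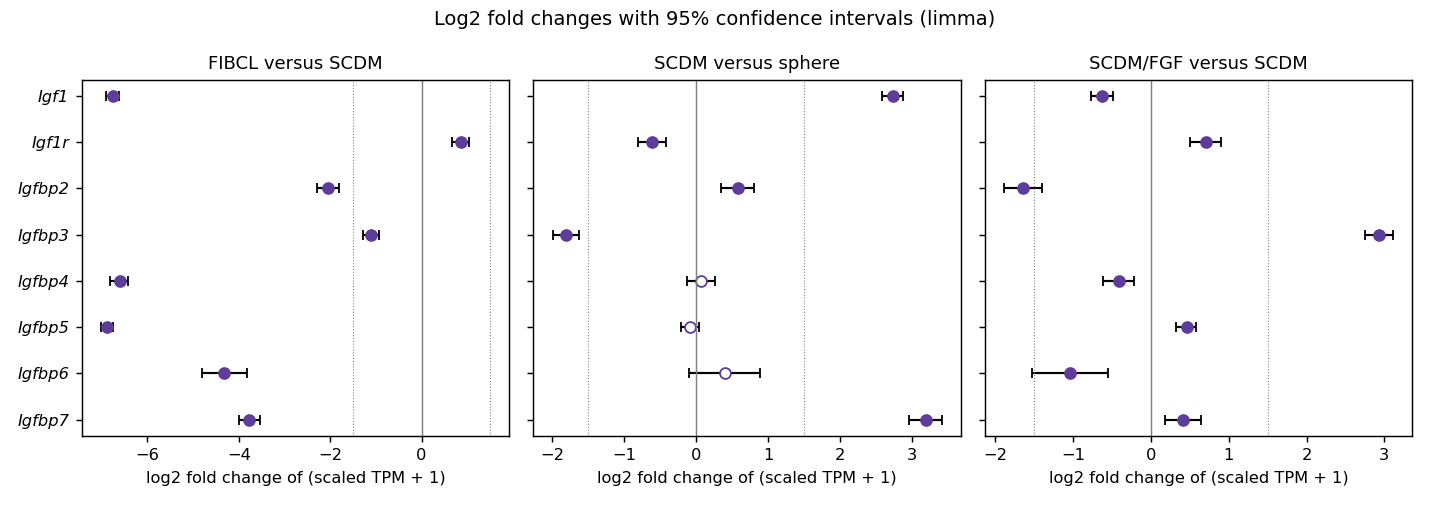
Log2 fold changes of scaled TPM + 1 for the 8 genes in 3 comparisons, with 95% confidence intervals from limma. Filled circles passed at an adjusted p under 0.05, open circles did not, and dotted lines mark 1.5 and −1.5. Between FIBCL and SCDM only Igf1r is right of 0, and between SCDM and spheres Igfbp4, Igfbp5 and Igfbp6 are open.

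The IGF genes were also low in FIBCL against the other 2 groups. Against SCDM/FGF, 7 of the 8 were lower and 0 were higher, where 38.2% of all genes tested were lower and 32.5% higher. 6 had a large fall (9.8% of all genes), and 7 had no overlap of libraries (72.9% of all genes). Igfbp5 was 181 times lower (log2 fold change −7.34, adjusted p = 7.28e-15) and Igfbp3 17.3 times lower (−4.03, adjusted p = 4.82e-12), while Igfbp2 differed by −0.40 (adjusted p = 0.00596, and −0.71 on the deposited TPM). Against spheres, 7 were lower and 1 was higher (38.7% and 32.9% of all genes), 5 of the falls were large (8.79%) and 8 had no overlap (75.0%). Igfbp4 and Igfbp5 had the lowest values there, at −6.55 (adjusted p = 2.52e-13) and −6.97 (adjusted p = 9.62e-15). Igfbp3 fell by 2.92 on the log2 scale, Igfbp6 by 3.92 and Igfbp2 by 1.47 (adjusted p = 6.15e-11, 2.34e-08 and 2.13e-07).

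**Figure D3:**
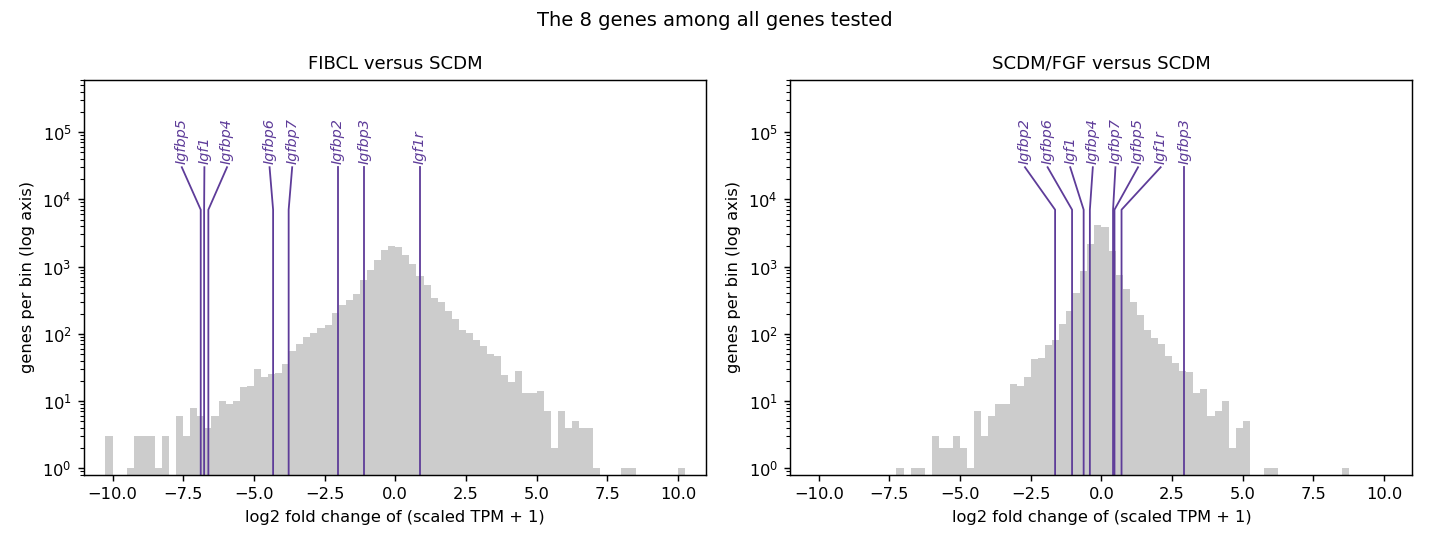
Histograms of the log2 fold change of all 16016 genes tested (grey, number of genes per bin on a log axis), with the 8 genes as vertical lines, for FIBCL against SCDM and SCDM/FGF against SCDM. Igfbp5, Igf1 and Igfbp4 are in the left tail of the first, and Igfbp3 is in the right tail of the second.

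Markers of several cell types moved with FIBCL. For comparison, 32.7% of all genes tested were higher in FIBCL than in SCDM and 39.0% were lower. In the order sphere, SCDM, SCDM/FGF and FIBCL, the summed scaled TPM of 10 neuron markers ran from 23.5 to 23.8, 18.5 to 21.5, 27.6 to 37.9 and 530 to 561. The 8 of them that were tested were all higher in FIBCL than in SCDM, but Elavl3 and Snap25 reached the low-value limit only through FIBCL. Elavl4, under 1 in every FIBCL library, and Rbfox3, with a mean of 0.948 there, were not tested. The sum of 12 mesenchymal markers was 2990 to 3060, 7600 to 7910, 5590 to 6020 and 226 to 241, with 10 lower in FIBCL than in SCDM and 2, Twist1 and Prrx1, higher; Postn and Lum were under 1 in every FIBCL library. The sum of 12 macrophage markers was 162 to 205, 2020 to 2250, 2190 to 2360 and 176 to 205. All 12 were lower in FIBCL than in SCDM, with Csf1r, Ptprc, Itgam, C1qa, C1qb, C1qc and Cx3cr1 under 1 in every FIBCL library, where Cd68 made up most of the sum with a mean of 164. The sum of 10 Schwann and satellite glia markers was 784 to 826, 414 to 466, 368 to 412 and 61.4 to 64.1, with 9 lower in FIBCL than in SCDM and 0 higher. Spheres thus held the glial markers that their label implies, but the mesenchymal sum was above the glial sum in every group. In FIBCL most of the mesenchymal sum came from Twist1 and Prrx1, with means of 110 and 60.7. Pmp22, with a mean of 38.7, made up most of the glial sum there. The neuron sum was above both in FIBCL. Their part in the results on the IGF genes was not tested. In bulk RNA, fewer cells of a type and less RNA per cell cannot be told apart.

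Smaller sums moved too. The 6 endothelial markers summed to 109 to 110 in spheres, 42.8 to 51.2 in SCDM, 264 to 303 in SCDM/FGF and 13.0 to 13.7 in FIBCL, where Cldn5 and Emcn were listed at 0. Emcn alone made up most of the sum in spheres, SCDM and SCDM/FGF, with means of 96.4, 37.7 and 248. Kdr, with a mean of 10.1, made up most of it in FIBCL. Of the 6, 2 were higher and 3 were lower in FIBCL than in SCDM (32.7% and 39.0% of all genes). Tek, among the lower genes, reached the low-value limit only through SCDM. The 6 smooth muscle and pericyte markers summed to 27.9 to 31.2, 237 to 320, 31.9 to 55.2 and 9.2 to 9.85 in the same order. Of these, 1 was higher and 4 were lower in FIBCL than in SCDM (32.7% and 39.0% of all genes). The higher gene was Myh11, which reached the low-value limit only through FIBCL. The 6 melanocyte markers, of which 2 were tested, summed to at most 9.57 in any library.

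From spheres to SCDM, the ligand and Igfbp7 rose and Igfbp3 fell, while the most abundant binding proteins were close to level. Of the 8 genes, 3 were higher in SCDM, 2 were lower and 3 did not pass, where 24.5% of all genes were higher and 25.8% were lower. Igf1 was 6.86 times higher (log2 fold change 2.73, adjusted p = 1.34e-10 in limma) and Igfbp7 9.24 times (3.19, adjusted p = 1.07e-09), the 2 large rises, which 3.76% of all genes had. Igfbp2 was higher by 0.58 (adjusted p = 0.000928). Igfbp3 measured 128, 129 and 123 in spheres and fell by 1.81 in SCDM (adjusted p = 1.22e-08), a large fall that 2.41% of all genes had. Igf1r fell by 0.61 (adjusted p = 0.000123).

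The other 3 genes did not pass, and their intervals cover only the spread between libraries under the scaling used here. Igfbp4 differed by 0.064 (95% interval −0.13 to 0.26, adjusted p = 0.585), with a sign that turned on the deposited TPM (−0.081) and under quantile normalization (−0.19). Igfbp5 differed by −0.084 (−0.21 to 0.042, adjusted p = 0.248), and passed on the deposited TPM (−0.23, adjusted p = 0.0248) and under quantile normalization (−0.44, adjusted p = 0.000478). Igfbp6 differed by 0.40 (−0.094 to 0.89, adjusted p = 0.164), and passed in a model of SCDM and sphere libraries alone (adjusted p = 0.0356) and without SCDM/FGF library 1 (adjusted p = 0.0433). The libraries of SCDM and spheres did not overlap for 6 of the 8 genes, against 58.6% of all genes. Between the same groups all 12 macrophage markers were higher in SCDM, and 5 mesenchymal markers were higher and 5 lower, with values as given above. Of the Schwann and satellite glia markers 1 was higher and 8 were lower, and of the neuron markers tested 2 were higher and 3 lower. Of the endothelial markers 2 were higher and 4 lower, and of the smooth muscle and pericyte markers 3 were higher and 1 was lower. Among the endothelial markers, Tek reached the low-value limit only through SCDM and Cldn5 only through spheres. The shares of all genes were 24.5% higher and 25.8% lower.

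In SCDM/FGF, Igf1 and Igfbp7 were again higher than in spheres. 4 of the 8 genes were higher, 3 were lower and 1 did not pass (25.0% and 25.4% of all genes were higher and lower), and 7 had no overlap (57.0%). Igf1 was higher by 2.11 (adjusted p = 5.54e-10) and Igfbp7 12.4 times higher (3.60, adjusted p = 4.03e-10), the 2 large rises (4.12% of all genes), and 0 falls were large (1.92%). Igfbp3 was higher by 1.11 (adjusted p = 6.32e-07) and Igfbp2 lower by 1.07 on the log2 scale (−1.07, adjusted p = 8.46e-06), each the opposite of its direction between SCDM and spheres. Igfbp4 differed by −0.35 (adjusted p = 0.00669, and −0.60 under quantile normalization) and Igfbp5 by 0.37 (adjusted p = 0.000208), but the latter did not pass on the deposited TPM (0.15, adjusted p = 0.123) or under quantile normalization (0.025, adjusted p = 0.803). The Igfbp6 difference of −0.64 (adjusted p = 0.0324) did not pass without any 1 of the sphere libraries (adjusted p = 0.0819, 0.0577 and 0.0703 without libraries 1, 2 and 3) or without SCDM/FGF library 1 (−0.36, adjusted p = 0.0989). Igf1r did not pass (0.10, adjusted p = 0.388, and −0.12 on the deposited TPM).

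The comparison of SCDM/FGF with SCDM asks what bFGF alone changed, since the media differ only in that factor. All 8 genes passed, 4 higher and 4 lower, where 21.8% of all genes were higher and 21.3% were lower. Their median was 0.00, against −0.02 over all genes. The libraries did not overlap for all 8 genes, against 51.6% of all genes, with 1 large rise (2.88% of all genes) and 1 large fall (1.97%).

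The largest differences were in the carriers Igfbp3 and Igfbp2. Igfbp3 measured 242, 283 and 303 in SCDM/FGF against 35.1, 34.0 and 36.7 in SCDM, 7.83 times higher (log2 fold change 2.93, SE 0.082, adjusted p = 3.17e-10). Igfbp2 measured 46.3, 64.2 and 50.2 against 175, 158 and 170, 3.13 times lower (log2 fold change −1.64, adjusted p = 2.59e-07). Every SCDM/FGF library was above every SCDM library for Igfbp3 and below it for Igfbp2. Within a library, the ratio of Igfbp3 to Igfbp2 was 0.201 to 0.215 in SCDM and 4.42 to 6.04 in SCDM/FGF. It was 1.08 to 1.17 in spheres and 0.355 to 0.439 in FIBCL, so the SCDM/FGF libraries held the most Igfbp3 for their Igfbp2. A factor per library leaves this ratio as it is.

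The other 6 genes moved less with bFGF. Igf1 fell by 0.63 on the log2 scale (adjusted p = 9.35e-06), while its receptor gene Igf1r was 1.72 times higher (0.71, adjusted p = 4.69e-05). Igfbp5 was 1.38 times higher (0.46, adjusted p = 5.12e-05) and Igfbp4 fell by 0.41 (adjusted p = 0.0028), so the abundant pair moved apart. Igfbp6 was 2.06 times lower (−1.04, adjusted p = 0.00275), with the lowest value in SCDM/FGF library 1, and Igfbp7 was 1.34 times higher (0.41, adjusted p = 0.00715). The Igfbp2 and Igfbp5 neighbours differed in sign here. Between these groups, where 21.8% of all genes were higher and 21.3% lower, 3 macrophage markers were higher and 5 lower, and 5 mesenchymal markers were higher and 5 lower. Of the neuron markers tested 3 were higher and 0 lower, and of the Schwann and satellite glia markers 3 were higher and 3 lower. Of the endothelial markers 2 were higher and 2 lower, and of the smooth muscle and pericyte markers 1 was higher and 4 were lower. Tek, an endothelial marker, reached the low-value limit only through SCDM. The part of the markers in these differences was not tested.

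**Figure D4:**
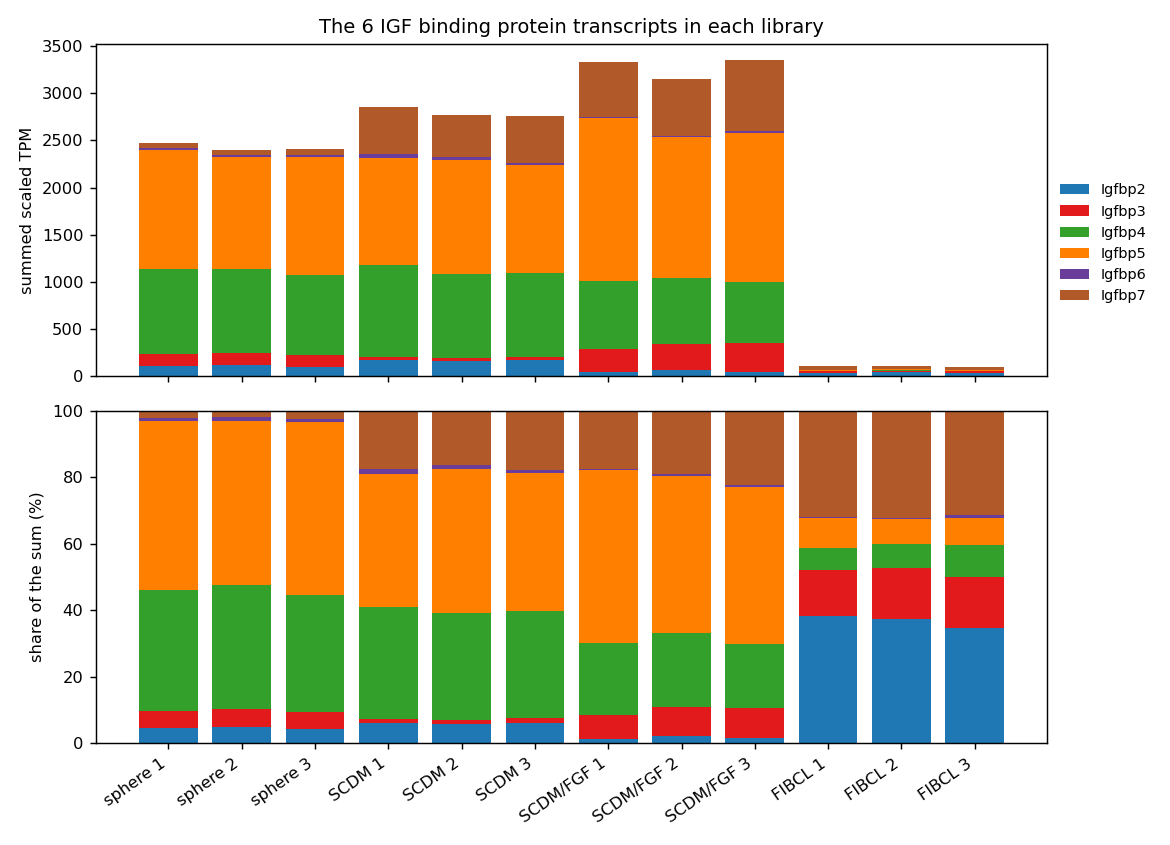
Stacked bars of the 6 binding protein transcripts in each library, as summed scaled TPM (top) and as percent of that sum (bottom). Igfbp4 and Igfbp5 fill most of the bar in spheres, SCDM and SCDM/FGF, and the FIBCL sums are near 108 with Igfbp2 and Igfbp7 as the main parts.

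Summed over the 6 genes, binding protein transcripts came to 2420 ± 40.5 scaled TPM in spheres and 108 ± 5.65 in FIBCL (mean ± SD, n = 3 each). The sum came to 3280 ± 116 in SCDM/FGF and to 2800 ± 55.8 in SCDM (SD, n = 3). Their make-up also differed. Igfbp4 and Igfbp5 together were 87.0% of the sum in spheres, 74.4% in SCDM, 69.8% with bFGF and 16.0% in FIBCL. Igfbp7 was 2.15%, 17.2%, 19.6% and 31.8% in the same order. Igfbp2 was 4.64%, 6.0%, 1.64% and 36.9%, which made it the most abundant binding protein transcript by mean in FIBCL, although its libraries overlapped with those of Igfbp7. Igfbp3 was 5.22%, 1.26%, 8.43% and 14.7%. These shares were not tested.

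Ordered by level within a group, Igfbp5 was above Igfbp4 in spheres, SCDM and SCDM/FGF, and in spheres no neighbours in the order overlapped. In SCDM only Igfbp3 and Igfbp6 overlapped. In SCDM/FGF the overlapping neighbours were Igfbp4 with Igfbp7 and Igfbp6 with Igf1r. In FIBCL they were Igfbp2 with Igfbp7, Igfbp3 with Igf1r, Igfbp5 with Igfbp4 and Igf1 with Igfbp6, so that 4 pairs of genes could not be ordered there. Igf1r was the lowest of the 8 in spheres and SCDM, and Igf1 and Igfbp6 were the lowest in FIBCL.

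The genes whose pattern over the 12 libraries was most like that of each IGF gene were found by Pearson's r of log2(scaled TPM + 1) among 8914 genes with a mean of at least 10 scaled TPM. These r values describe 4 groups of 3 libraries and carry no test. For Igf1 they were Fgl2 (0.998), H19 (0.997) and Cdc20 (0.996), and for Igf1r they were Cds2 (0.987), Zfp217 (0.976) and Tet2 (0.969). Igfbp2 was most like Snai2 (0.988), Crym (0.987) and Bmper (0.986), and Igfbp3 most like Fhl3 (0.996), A4galt (0.995) and Ptpn2 (0.993). Foxc1 (0.999), Islr (0.998) and Ptpa (0.998) came first for Igfbp4, and Rhoj, C1s1 and Mgp (0.999 each) for Igfbp5. For Igfbp6 they were Tmem39a (0.994), Srpx2 (0.990) and Cpq (0.990), and for Igfbp7 they were Laptm5 (0.995), Plod2 (0.994) and Ptpn18 (0.992). No IGF gene was among the 3 genes most like another.

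The rest of the pathway was read from a list of 61 other genes, of which 55 were tested. Between FIBCL and SCDM 16 were higher, 28 were lower and 11 did not pass, a median of −0.31, where 32.7% of all genes were higher and 39.0% lower with a median of −0.07. Between SCDM/FGF and SCDM the counts were 18, 21 and 16, a median of −0.08, where 21.8% of all genes were higher and 21.3% lower with a median of −0.02.

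Among the other ligands and receptors, Igf2, the second ligand of the IGF1 receptor, moved like Igf1. It measured 1300, 1200 and 1140 in SCDM, 720, 986 and 682 in SCDM/FGF, 170, 176 and 173 in spheres and 31.3, 24.5 and 30.6 in FIBCL. The fall from SCDM to FIBCL was 5.36 on the log2 scale (log2 fold change −5.36, adjusted p = 1.65e-11) and that from SCDM to SCDM/FGF 0.63 (−0.63, adjusted p = 0.00202). Igf2 exceeded Igf1 in every library, 5.69 to 9.15 times outside FIBCL and 40.6 to 42.9 times in FIBCL. Igf2r, which takes up and clears IGF2, was 2.04 times higher in FIBCL than in SCDM (log2 fold change 1.02, adjusted p = 2.31e-07). Insr, the insulin receptor gene, was lower in FIBCL (−0.42, adjusted p = 0.000916), so the ratio of Igf1r to Insr within a library was 1.84 to 1.9 in FIBCL and 0.654 to 0.763 in SCDM. The insulin genes Ins1 and Ins2 and the liver binding protein gene Igfbp1 were listed at 0 in every library. Igfals, the acid-labile subunit that joins IGFBP3 or IGFBP5 and IGF in blood, did not exceed a group mean of 1.57 scaled TPM.

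Genes for proteins that cut binding proteins, or hold back that cutting, differed from gene to gene. Of 5, 2 were higher in FIBCL than in SCDM and 3 were lower (32.7% and 39.0% of all genes). Pappa, which encodes a protease for IGFBP4 and IGFBP5, measured 11.6, 14.4 and 12.5 in SCDM and 0.562, 0.443 and 0.564 in FIBCL (log2 fold change −3.18, adjusted p = 9.37e-11). Pappa2, which cuts IGFBP3 and IGFBP5, was found at 14.5, 18.5 and 14.9 in SCDM and at no more than 0.343 in any library of the other groups, so it reached the low-value limit only through SCDM. Pappa2 fell by 3.76 from SCDM to SCDM/FGF (adjusted p = 1.42e-09) and by 4.06 from SCDM to FIBCL (adjusted p = 1.47e-10). The PAPP-A inhibitors Stc1 and Stc2 moved apart, with Stc1 at 1.4, 1.13 and 1.78 in SCDM, 12.1, 14.5 and 13.1 in SCDM/FGF and 4.79, 5.46 and 6.61 in FIBCL. Against SCDM, Stc1 was higher by 2.55 in SCDM/FGF (adjusted p = 7.58e-08) and by 1.44 in FIBCL (adjusted p = 2.95e-06), while Stc2 fell by 0.83 and 2.49 (adjusted p = 0.00405 and 2.61e-07). Htra1, which encodes a secreted serine protease that can cut IGFBP5, was 4.44 times higher in FIBCL than in SCDM, at 406, 426 and 400 against 96.4, 92.8 and 88.7 (log2 fold change 2.14, adjusted p = 2.14e-11).

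Downstream of the receptor, the adaptor genes Irs1 and Irs2 were higher in FIBCL than in SCDM, as Igf1r was. Between FIBCL and SCDM/FGF the Igf1r difference did not pass. Irs1 measured 61.6, 61.4 and 57.0 in FIBCL against 15.9, 19.8 and 17.4 in SCDM (log2 fold change 1.71, adjusted p = 6.3e-08), and Irs2 was 2.64 times higher (1.26, adjusted p = 5.54e-08). Between SCDM/FGF and SCDM they differed in sign, Irs1 at −0.90 (adjusted p = 4.61e-05) and Irs2 at 0.40 (adjusted p = 0.00169). Other adaptor genes were lower in FIBCL than in SCDM, with Shc1, a link to RAS, at −1.66 (adjusted p = 1.63e-10) and Grb14, an inhibitor of insulin receptor signalling, at −1.74 (adjusted p = 3.77e-08). Of 8 adaptor genes tested, 2 were higher, 3 were lower and 3 did not pass, near the shares of all genes (32.7% and 39.0%).

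Of 20 PI3K, AKT and mTOR genes, 5 were higher in FIBCL than in SCDM, 9 were lower and 6 did not pass (32.7% and 39.0% of all genes were higher and lower). Pik3r1, the main regulatory subunit of PI3K, was the only one with a large change (log2 fold change −2.06, adjusted p = 4.65e-10). From SCDM to SCDM/FGF, Rictor, an mTORC2 subunit, rose from a mean of 11.6 to 43.9 (1.83, adjusted p = 3.86e-08). The counts between these 2 groups were 6 higher, 6 lower and 8 not passed (21.8% and 21.3% of all genes). FoxO factors are switched off by AKT. Of 14 genes they are known to activate, 4 were higher in FIBCL than in SCDM and 9 were lower (32.7% and 39.0% of all genes), with Txnip at −2.16 (adjusted p = 1.13e-08), Fbxo32 at −1.74 (adjusted p = 3.61e-08), Sesn1 at −1.57 (adjusted p = 5.32e-10), Cdkn1b at −1.53 (adjusted p = 8.35e-09) and the stress gene Gadd45a at 1.70 (adjusted p = 1.42e-10). Of the 4 FoxO genes, 2 were higher, with Foxo6 at 1.59 (adjusted p = 1.33e-07), and 1 was lower. These genes answer to other pathways as well, and transcript levels do not show receptor activity.

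**Figure D5:**
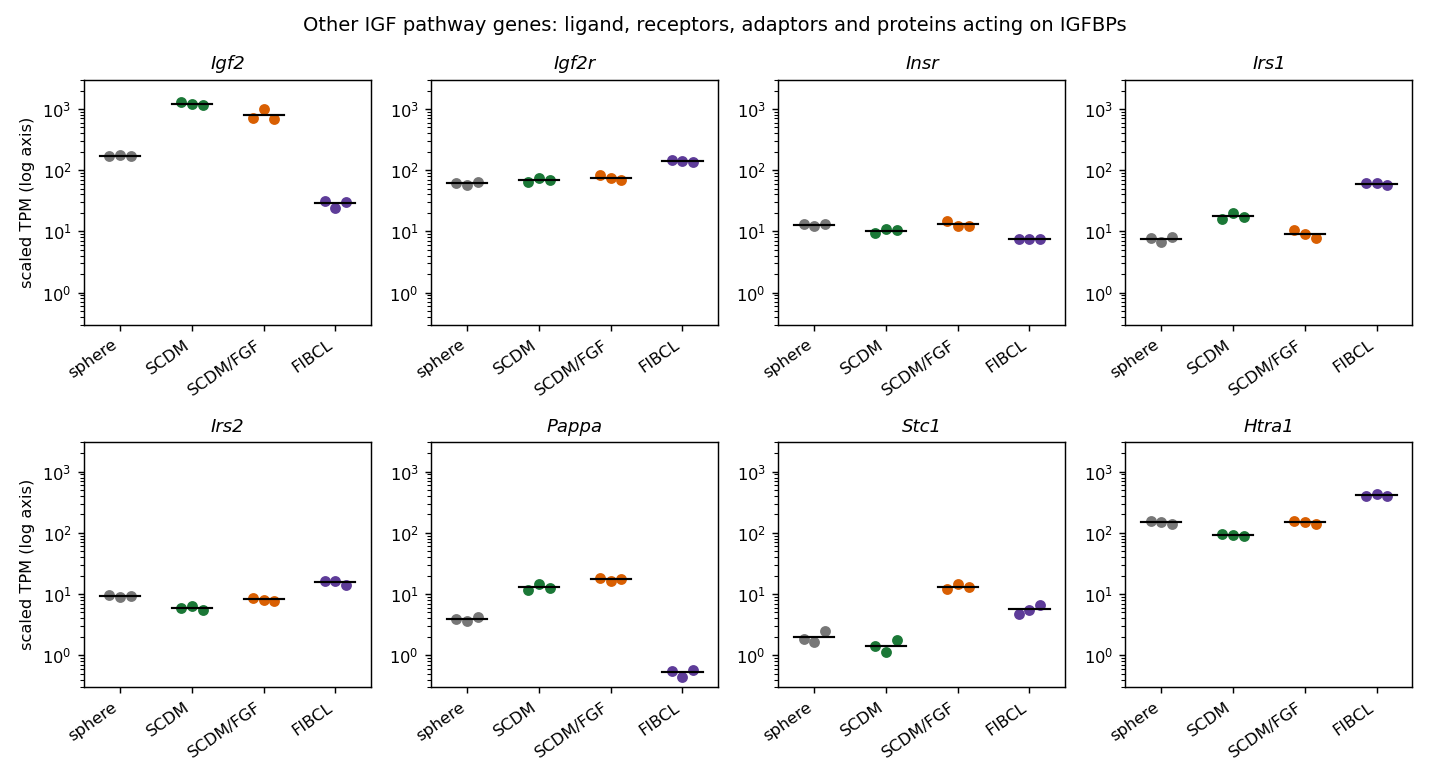
Scaled TPM (log axis) of 8 other genes of the pathway in each of the 12 libraries, by group, with the group mean as a bar. Igf2 and Pappa are lowest in FIBCL, Igf2r, Irs1, Irs2 and Htra1 are highest there, and Stc1 is highest in SCDM/FGF.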

How the data were processed

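RNA-seq was done on 12 libraries, 3 per group, grouped by their sample labels. The authors deposited TPM with 2 decimals for 55487 genes, made with RSEM from trimmed paired reads and TopHat alignments. Cufflinks is also listed in the submitters' processing notes. The methods speak of alignment in orientation mode without defining it, and no tool version, genome build or strand setting of the counting is given in the sources used here. TPM does not keep read numbers, so library depth is unknown and no counting interval was made. The table names the FIBCL columns FIBC, which were matched to FIBCL by title, and whether LIF was in these libraries is known only from the labels. Positions come from GENCODE M21, which holds 55141 of the identifiers (53340 with the same symbol).

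A gene was kept if 3 or more libraries reached 1 TPM (16016 genes). Each library was scaled to the average of all by a mean log2 ratio, trimmed by 30% at each end, over 8434 genes that reached 5 TPM throughout. Log2(scaled TPM + 1) was tested in limma 3.58.1 (R 4.3.3) with a mean-variance trend, as 6 comparisons from one model of the 4 groups, without covariates, with Benjamini-Hochberg adjustment over all genes within each comparison. Named genes were the 8 IGF genes, pathway genes with a large change between FIBCL or SCDM/FGF and SCDM, a few fixed pathway genes (Igf2, Igf2r, Insr, Igfbp1, Pappa) and, for each IGF gene, the 3 genes of highest r. Ins1, Ins2, Igfals, Irs2 and single marker genes were named after their values were seen. The IGF genes, the lists and the tests were chosen with earlier results of these data known.

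Alternatives were the deposited TPM, median of ratios and quantile scaling, other pseudocounts, low-value limits and models, the replicate number as a block, and each library left out in turn.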

Additional observations from a re-analysis of the deposited data

How the results depend on the processing

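Every count of IGF genes passing or with a large change, 132 under other settings and 144 with 1 library left out, stayed within 1.5 times its value as reported when both directions were counted together. By direction, Igf1r made the number of higher genes 1 in place of 0 between FIBCL and SCDM/FGF under quantile normalization. It made that number 0 in place of 1 between FIBCL and spheres on the deposited TPM, where Igf1r passed as lower. Igfbp5 made 3 lower genes of 2 between SCDM and spheres under both of these settings. Counts by direction also moved between SCDM/FGF and spheres through Igfbp5 and Igfbp6, and between SCDM and spheres through Igfbp6. Of 528 log2 fold changes recomputed under the alternatives, 514 kept their direction and their side of the threshold, and of 576 with 1 library left out, 569 did. All 5 that changed direction lay within 0.3 of 0. On the deposited TPM, Igf1r turned to −0.14 between FIBCL and SCDM/FGF, to −0.26 between FIBCL and spheres and to −0.12 between SCDM/FGF and spheres, and Igfbp4 to −0.081 between SCDM and spheres, where quantile normalization gave −0.19. Calls also changed for Igf1r between FIBCL and SCDM/FGF under quantile normalization (0.26, adjusted p = 0.0123) and for Igfbp6 between SCDM/FGF and spheres with a pseudocount of 0.1 (−0.68, adjusted p = 0.0742), with no low-value limit (−0.64, adjusted p = 0.0692) and in a model of the 2 groups (−0.64, adjusted p = 0.0708). The cause was not tested. The other changed calls stand beside their results.

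With a pseudocount of 0.1 in place of 1, the number of genes with a large change rose in every comparison. It rose from 2860 to 4011 between FIBCL and SCDM, from 2685 to 3840 between FIBCL and SCDM/FGF and from 2550 to 3851 between FIBCL and spheres. The rise was from 989 to 1711 between SCDM and spheres, from 967 to 1618 between SCDM/FGF and spheres and from 777 to 1278 between SCDM/FGF and SCDM. A replicate block changed no call on the 8 genes and gave 11391 calls over all genes between FIBCL and SCDM, against 11480 without it. Same-numbered libraries of different groups had deviations correlated at −0.121 to 0.0976 over 18 pairs, against −0.0725 to 0.12 over 36 other pairs. The deviations are from means of 3 libraries, so these values cannot tell whether same-numbered libraries shared a culture. The labels give only the number. The number of reads behind a TPM is unknown, which limits Igf1 and Igfbp6 in FIBCL most.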
